A study of Mus musculus with 8 samples.

Results

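The adhesion G protein-coupled receptors were examined in conventional dendritic cells sorted from mouse spleen. Members were taken as every protein-coding gene whose mouse symbol starts with Adgr followed by a family letter and a digit, which gave 27 of the 55487 genes in the files. The study profiled 8 RNA-seq libraries, 2 in each of 4 groups, from untreated C57BL/6 mice. The groups were cDC1 from mice with the Zeb2 -165(d1+2+3) allele (Zeb2 mutant cDC1), cDC1 from wild-type mice, cDC2 from mice with the Irf8 +32-/- allele (Irf8 mutant cDC2) and cDC2 from wild-type mice. Both alleles are known as alterations of enhancers, no cell type is given to which they are limited, and the sources used here give neither the age or sex of the animals nor how many went into a library. No cDC2 library of the Zeb2 mutant and no cDC1 library of the Irf8 mutant was analysed here, so each allele is seen in 1 cell type.

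Adhesion receptors carry a long extracellular region with adhesive domains joined to a membrane-spanning part by a domain at which many of them cleave themselves. A short stretch exposed behind that cleavage site acts as a tethered agonist, so that pulling on the extracellular part can start G protein signalling. In the spleen the best described member is Adgre5 (CD97), which binds CD55 on blood cells and is known in mice to help hold dendritic cells in blood-exposed positions. Adgre1 encodes F4/80, the classic surface marker of mouse macrophages, and Adgre4 encodes a related receptor first described in mice on macrophages and on dendritic cells that lack CD8.

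The libraries held 49380686 to 58611821 counts. Markers of cDC1 summed to 6133 to 6683 TMM-normalised CPM (counts scaled to a library total of 1000000) in the cDC1 libraries and to 205 to 238 CPM in the cDC2 libraries, and markers of cDC2 to 21.2 to 40.5 and to 1955 to 2135 CPM, so the labelled cell types matched their markers in all 8 libraries. Zeb2 stood at 2.24 and 3.54 CPM in Zeb2 mutant cDC1, against 2.09 and 2.10 CPM in wild-type cDC1, and Irf8 at 147 and 120 CPM in Irf8 mutant cDC2, against 126 and 104 CPM in wild-type cDC2. Neither target gene was lower in its mutant, so these levels do not check the genotype labels. The 2 wild-type cDC1 libraries stood apart from each other. Replicate 2 had a count for 25993 genes and replicate 3 for 32358, while the other libraries had 27547 to 29775. The difference between the 2 followed gene length (Spearman's rho -0.39 over 8399 genes). That rho was 0.24 between the Zeb2 mutant libraries, 0.14 in Irf8 mutant cDC2 and -0.00 in wild-type cDC2. Which of the 2 wild-type cDC1 libraries is the odd one was not tested. Results that turn on wild-type cDC1 replicate 3 are given below with and without it. What a replicate number stands for is not stated, so the spread behind each p-value is that between libraries and may be technical.

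All 27 members had at least 1 count, and 14 were detected, meaning that both libraries of at least 1 group reached 0.5 CPM as deposited. Zeb2 mutant cDC1 held 13 detected members, wild-type cDC1 11, Irf8 mutant cDC2 13 and wild-type cDC2 13. Adgra2, Adgre1, Adgre4, Adgre5, Adgrg1, Adgrg6, Adgrl1, Adgrl2 and Adgrl3 were among those detected in all 4 groups. Adgrf5 reached 0.5 CPM in both libraries of the 2 cDC1 groups alone, and Adgrf3 in both libraries of the 2 cDC2 groups alone. Adgra3 and Adgrg3 were detected in every group but wild-type cDC1, where 1 of the 2 libraries lay below the limit. Adgrb2, Adgrb3, Adgrd1, Adgrl4 and Adgrv1 passed the filter on low counts but were detected in no group. The other 8 members, Adgra1, Adgrb1, Adgrf1, Adgrf2, Adgrf4, Adgrg2, Adgrg4 and Adgrg7, held 13 to 60 counts over the 8 libraries together, with at most 22 in 1 library, and were not tested. Adgrb1 (BAI1), a receptor for phosphatidylserine on dying cells in other phagocytes, is among them.

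To show what stands before members called between the cell types in wild type, 250 bases upstream of a RefSeq start are printed for 3 of them (GRCm38.p6, 5′ to 3′, in the direction of the gene). Adgrf5 is the member higher in cDC1, Adgre4 the one with the largest difference the other way, and Adgrg1 the least abundant of those called lower. Capitals mark GAGGAA, a core bound by the myeloid factor PU.1, or CAGGTG, an E-box bound by Zeb factors, each on either strand, where TTCCTC and CACCTG are the same letters read from the other side.
Adgrf5, chr17:43360181-43360430, plus strand: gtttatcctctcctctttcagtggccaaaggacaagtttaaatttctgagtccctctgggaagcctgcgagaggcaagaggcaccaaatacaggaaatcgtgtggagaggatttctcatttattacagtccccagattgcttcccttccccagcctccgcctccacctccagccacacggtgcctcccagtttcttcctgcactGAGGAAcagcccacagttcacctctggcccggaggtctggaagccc
Adgre4, chr17:55749734-55749983, plus strand: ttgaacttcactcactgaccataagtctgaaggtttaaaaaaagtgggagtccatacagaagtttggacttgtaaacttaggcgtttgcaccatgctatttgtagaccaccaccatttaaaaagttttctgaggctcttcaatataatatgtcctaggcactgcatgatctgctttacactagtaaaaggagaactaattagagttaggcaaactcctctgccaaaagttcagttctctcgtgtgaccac
Adgrg1, chr8:94976859-94977108, plus strand: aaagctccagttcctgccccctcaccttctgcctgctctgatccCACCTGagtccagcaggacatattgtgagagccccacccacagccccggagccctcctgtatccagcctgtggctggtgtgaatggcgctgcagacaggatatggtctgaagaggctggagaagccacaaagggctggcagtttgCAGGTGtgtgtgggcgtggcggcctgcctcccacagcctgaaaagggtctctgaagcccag

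The Adgrf5 window held GAGGAA 46 bases before the start. The Adgrg1 window held the Zeb E-box at 206 and at 61 bases before the start, on opposite strands. The Adgre4 window held neither, nor any of the other letters searched on both strands, which were TGANTCA (AP-1), GGAA then 2 free bases then GAAA (the ETS-IRF composite element) and GAAA then 2 free bases then GAAA (the interferon response element). Among 32851 mouse promoter windows of the same length, 23.3% held GAGGAA and 17.2% CAGGTG, while the composite element was in 2.3%, the interferon response element in 2.98% and TGANTCA in 6.75%. GAGGAA can overlap either element, and the elements can overlap each other. A match describes letters in a window and not a bound site. Windows were found for 20 of the 27 members, and Adgrf5, Adgrg1 and Adgrl3 each have more than one start, of which the first is shown for Adgrf5 and Adgrg1. The stretch just after the start shown for Adgrf5 is not found whole in any transcript of the annotation used. In that annotation the gene begins close by, at chr17:43360451. The stretch after the other Adgrf5 window, chr17:43389216-43389465, is found whole in a transcript, and that window held none of the letters searched. The second Adgrg1 window, chr8:94984149-94984398, held TGANTCA at 2 positions and no Zeb E-box.

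Adgre5 was the most abundant member per length in every library. Its level averaged 171 ± 2.58 FPKM in Zeb2 mutant cDC1, 185 ± 0.55 FPKM in wild-type cDC1, 168 ± 4.97 FPKM in Irf8 mutant cDC2 and 167 ± 7.04 FPKM in wild-type cDC2 (SD, n = 2 each), where FPKM is the deposited CPM per kilobase of exon. In Irf8 mutant and wild-type cDC2, Adgre1 (69.9 ± 2.72 and 64.2 ± 3.57 FPKM) and Adgre4 (41.4 ± 0.557 and 44.3 ± 0.668 FPKM) stood below it, and their libraries did not overlap each other. In Zeb2 mutant and wild-type cDC1 Adgra2 stood at 5.59 ± 0.382 and 3.77 ± 1.99 FPKM, with Adgre1, Adgrf5 and Adgrl3 behind it at group means of 0.818 to 1.96 FPKM.

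The first comparison asks how cDC1 and cDC2 differ in wild-type mice. Among the 19 tested members, 1 was higher in wild-type cDC1 (Adgrf5) and 6 were lower (among them Adgre4, Adgre1, Adgrg6, Adgrl3 and Adgrg1), at an adjusted p under 0.05 in edgeR's quasi-likelihood test (Benjamini-Hochberg over 20631 genes). That is 36.8% of the tested members, against 30.1% of all tested genes in either direction (14.2% higher and 15.9% lower), so the share of members called is near the background. The median log2 fold change was -0.79 over the tested members and 0.03 over all tested genes. The 2 libraries of 1 group did not overlap those of the other for 13 of the 19, against 65.0% of all tested genes, which is again near the background.

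Adgre4 (ENSMUSG00000032915, chr17:55749984-55853662) had 1.02 and 1.25 CPM in wild-type cDC1, against 164 and 156 CPM in wild-type cDC2. The groups were far apart, with 132 counts against 17828 over the 2 libraries of each. Wild-type cDC1 was 141-fold lower (log2 fold change -7.14 ± 0.19 SE, edgeR adjusted p = 6.9e-09).

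Adgre1 (ENSMUSG00000004730, chr17:57358691-57483527) had 3.84 and 3.25 CPM in wild-type cDC1, against 227 and 204 CPM in wild-type cDC2. Both cDC1 libraries lay far below both cDC2 libraries, a 60.9-fold lower level (log2 fold change -5.93 ± 0.17 SE, edgeR adjusted p = 1.19e-08). In these bulk libraries fewer cells that carry a transcript and less of it per cell cannot be told apart. The 10 macrophage markers, all with counts, summed to 96.0 and 77.9 CPM in wild-type cDC1 and to 209 and 194 CPM in wild-type cDC2. Among them C1qa, a complement component made by macrophages, stood at 0.708 and 0.479 CPM in wild-type cDC1, against 9.84 and 10.7 CPM in wild-type cDC2, and 9 of the 10 had both cDC1 libraries below both cDC2 libraries. Over all tested genes the 2 groups did not overlap for 65.0%, in either direction, which is the background of such marker counts. The 10 monocyte markers summed to 4763 and 3673 CPM in wild-type cDC1 and to 8684 and 8065 CPM in wild-type cDC2, most of it from Nr4a1, but the list was split. Both cDC1 libraries lay below both cDC2 libraries for 6 of its genes, such as Csf1r (15.9 and 13.8 CPM in wild-type cDC1, against 624 and 612 CPM in wild-type cDC2), and above them for 4: Ly6c2, Ccr2, Treml4 and Plac8. The part of such cells in the Adgre1 and Adgre4 differences was not tested.

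**Figure D1:**
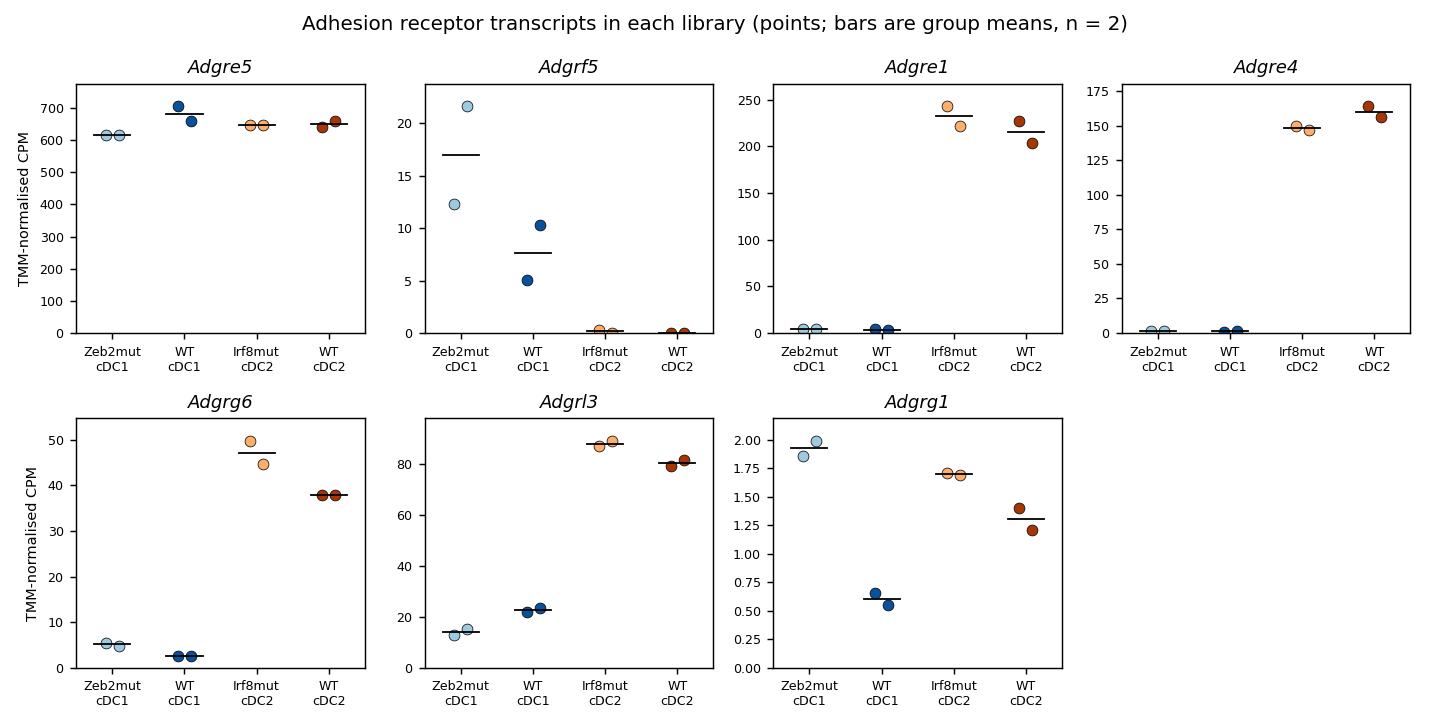
TMM-normalised CPM of 7 members in each library (points) with group means (bars, n = 2), on linear axes that start at 0 and differ between panels. Adgre5 lies at 616 to 705 CPM in all libraries, Adgrf5 is highest in the cDC1 groups, and the other 5 members are lower in wild-type cDC1 than in wild-type cDC2.

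Adgrg6 (GPR126), known for its need in Schwann cell myelination and for binding type IV collagen and the prion protein, had 2.56 and 2.51 CPM in wild-type cDC1, against 37.9 and 37.9 CPM in wild-type cDC2. The groups did not overlap, and wild-type cDC1 was 14.9-fold lower (log2 fold change -3.90 ± 0.17 SE, edgeR adjusted p = 1.27e-07).

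Adgrl3 (latrophilin 3), which binds teneurins and FLRT proteins at synapses, had 22.1 and 23.3 CPM in wild-type cDC1, against 79.2 and 81.8 CPM in wild-type cDC2. Both groups were tight and did not overlap, with a 3.55-fold lower level in wild-type cDC1 (log2 fold change -1.83 ± 0.13 SE, edgeR adjusted p = 4.49e-06). Adgrl3 has an exon length of 17750 bases, 8.91% of which overlap a predicted gene on the other strand, and with the length trend removed its log2 fold change was -1.41 (adjusted p = 4.68e-05). Adgrg1 (GPR56), a collagen III receptor of brain development also found on cytotoxic lymphocytes, had 0.657 and 0.547 CPM in wild-type cDC1, against 1.40 and 1.21 CPM in wild-type cDC2. These are 70 and 145 counts over the 2 libraries of each group, a 2.17-fold lower level (log2 fold change -1.11 ± 0.37 SE, edgeR adjusted p = 0.045). The call was lost in 16 of 18 alternatives, among them the removal of any 1 of the 8 libraries (adjusted p = 0.0613 to 0.248). Markers of NK cells summed to 46.1 and 29.0 CPM in wild-type cDC1 and to 79 and 95 CPM in wild-type cDC2. The sum was higher in cDC2 through Klrd1 (10.1 and 5.17 CPM in wild-type cDC1, against 65 and 77 CPM in wild-type cDC2), while 5 of the 8 NK markers, among them the NK receptor gene Ncr1 (2.63 and 1.66 CPM in wild-type cDC1, against 0.546 and 0.888 CPM in wild-type cDC2), had both cDC1 libraries above both cDC2 libraries. For 65.0% of all tested genes these groups did not overlap, in either direction. The part of NK cells in the Adgrg1 difference was not tested.

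Adgrf5 (GPR116, ENSMUSG00000056492, chr17:43360451-43459557), known as the receptor that restrains surfactant in lung alveolar epithelium and as an endothelial gene, had 5.03 and 10.3 CPM in wild-type cDC1, against 0 and 0.0355 CPM in wild-type cDC2. Over the 2 libraries of each group that is 892 counts against 2, a ratio of normalised counts of 427 with a 95% interval of 118 to 3529 that covers counting error only. The edgeR log2 fold change was 8.56 ± 0.92 SE (adjusted p = 6.1e-05), a value that depends on the prior count because wild-type cDC2 held 2 counts. The 10 endothelial markers summed to 113 and 119 CPM in wild-type cDC1 and to 145 and 151 CPM in wild-type cDC2, most of it from Pecam1. Of the 10, 2 had both cDC1 libraries above both cDC2 libraries, as Adgrf5 did, and 4 had them below. Over all tested genes 65.0% did not overlap in either direction. Vwf, 1 of the 2, stood at 38.9 and 39.8 CPM in wild-type cDC1, against 18.1 and 17.5 CPM in wild-type cDC2. Cdh5, the other, stood at 0.743 and 0.718 CPM, against 0.436 and 0.604 CPM. The 4 below were Pecam1, Kdr, Plvap and Emcn, with Kdr at 0.449 and 2.55 CPM in wild-type cDC1, against 11.7 and 12.8 CPM. Tek (0.0173 and 0.171 CPM, against 0 and 0.0178 CPM) and Tie1 (0.0518 and 0.0684 CPM, against 0.218 and 0.0178 CPM) overlapped. The part of endothelial cells in the Adgrf5 difference was not tested. The endothelial receptor Adgrl4 (ELTD1) had 56 counts over wild-type cDC1 and 18 over wild-type cDC2 (log2 fold change 1.57 ± 0.86 SE, edgeR adjusted p = 0.206).

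Adgre5 (ENSMUSG00000002885, chr8:83723251-83741326), the most abundant member, had 705 and 660 CPM in wild-type cDC1, against 641 and 660 CPM in wild-type cDC2. The difference did not pass the test (log2 fold change 0.07, 95% interval -0.18 to 0.32, edgeR adjusted p = 0.700). Its exons share 926 bases, 24.6% of their length, with Ddx39 on the other strand. The kit does not mark strand, so reads from the shared stretch cannot be told apart, and Ddx39 stood at 107 to 151 CPM across the libraries.

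Adgra2 (GPR124), which with Reck senses Wnt7 in brain endothelium, had 13.8 and 28.4 CPM in wild-type cDC1, against 36.6 and 36.3 CPM in wild-type cDC2 (log2 fold change -0.79 ± 0.28 SE, edgeR adjusted p = 0.0594). Its wild-type cDC1 libraries stood apart from each other, and the call depended on them and on the tool and filter. Without wild-type cDC1 replicate 3 the log2 fold change was -1.40 (adjusted p = 0.000313), and without replicate 2 it was -0.37 (adjusted p = 0.226). With all 8 libraries it was called by DESeq2 (-0.82, adjusted p = 0.0112), by edgeR with no filter on low counts (adjusted p = 0.000447) and with a replicate block in which the numbers of wild-type cDC1 were swapped, a setting chosen after seeing the data (adjusted p = 0.0358). Adgrl1 (latrophilin 1) had 2.38 and 2.51 CPM in wild-type cDC1, against 6.33 and 4.0 CPM in wild-type cDC2 (log2 fold change -1.07 ± 0.39 SE, edgeR adjusted p = 0.0648). It was called in 6 of 18 alternatives, among them DESeq2 (-1.11, adjusted p = 0.023), and with 1 library left out it ranged over -1.35 to -0.68 (edgeR adjusted p = 0.0435 to 0.427). Of its exon bases, 15.6% overlap predicted genes on the other strand. Adgrl2, Adgra3, Adgrg3, Adgrf3, Adgrb2, Adgrb3, Adgrd1 and Adgrv1 had log2 fold changes of -1.57 to 1.0 with adjusted p-values of 0.191 to 0.946. Adgrd1 was called lower without wild-type cDC1 replicate 3 (adjusted p = 0.0277), where the remaining wild-type cDC1 library held 0 counts of it. Each of the 8 had at most 267 counts over the 2 libraries of either group, and their SEs of 0.52 to 1.71 limit which differences could be detected.

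The second comparison sets Zeb2 mutant cDC1 against Irf8 mutant cDC2, in libraries that the wild-type comparison does not use, although genotype differs too and all 8 libraries share 1 estimate of the spread. Here 1 member was higher in Zeb2 mutant cDC1 and 5 were lower, 31.6% of the tested members against 27.9% of all tested genes (12.8% higher and 15.0% lower). The member higher was Adgrf5 and the members lower included Adgre4, Adgre1, Adgrl3 and Adgrg6.

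Adgre4 had 1.27 and 1.64 CPM in Zeb2 mutant cDC1, against 150 and 147 CPM in Irf8 mutant cDC2 (log2 fold change -6.67 ± 0.19 SE, edgeR adjusted p = 7.75e-09). Adgre1 had 3.94 and 4.67 CPM in Zeb2 mutant cDC1, against 243 and 222 CPM in Irf8 mutant cDC2 (-5.76 ± 0.17 SE, edgeR adjusted p = 1.25e-08). As in wild type, both genes stood at a few CPM or less in cDC1 and at 147 or more in cDC2. Macrophage markers summed to 66.6 and 75.3 CPM in Zeb2 mutant cDC1 and to 272 and 161 CPM in Irf8 mutant cDC2, and their part in these differences was not tested. Adgrg6 had 5.54 and 4.74 CPM in Zeb2 mutant cDC1, against 49.7 and 44.6 CPM in Irf8 mutant cDC2, a 9.17-fold lower level (-3.20 ± 0.16 SE, edgeR adjusted p = 3.72e-07). Adgrl3 had 12.8 and 15.1 CPM in Zeb2 mutant cDC1, against 87.0 and 89.1 CPM in Irf8 mutant cDC2, 6.32-fold lower (-2.66 ± 0.14 SE, edgeR adjusted p = 4.07e-07). For both genes the cDC1 and cDC2 libraries again did not overlap.

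Adgrf5 had 12.3 and 21.6 CPM in Zeb2 mutant cDC1, against 0.308 and 0.0408 CPM in Irf8 mutant cDC2, which is 1891 counts against 18 over the 2 libraries of each. The log2 fold change was 6.57 ± 0.72 SE (edgeR adjusted p = 6.87e-05), a 97.4-fold higher mean. It ranged over 5.84 to 8.69 with 1 library left out, and 1 of the Irf8 mutant libraries held 16 of the 18 counts. The endothelial markers summed to 126 and 138 CPM in Zeb2 mutant cDC1 and to 177 and 131 CPM in Irf8 mutant cDC2. Of the 10, Vwf and Egfl7 had both Zeb2 mutant libraries above both Irf8 mutant libraries. The 4 genes Pecam1, Kdr, Plvap and Emcn had them below. The share over all genes was not computed for this comparison, so nothing is read from these numbers of genes. Vwf stood at 32.7 and 42 CPM in Zeb2 mutant cDC1, against 24.4 and 19.2 CPM in Irf8 mutant cDC2. Egfl7 stood at 0.224 and 0.479 CPM, against 0.135 and 0.163 CPM, and Kdr at 0.533 and 0.904 CPM, against 12.9 and 6.63 CPM. Cdh5 overlapped, at 1.5 and 0.148 CPM, against 0.327 and 0.408 CPM. The part of endothelial cells in these Adgrf5 values was not tested. Adgrg1 did not separate the mutant groups in the test, at 1.86 and 1.99 CPM in Zeb2 mutant cDC1, against 1.71 and 1.69 CPM in Irf8 mutant cDC2 (log2 fold change 0.18, 95% interval -0.62 to 0.97, edgeR adjusted p = 0.769). Adgre5 had 616 and 617 CPM in Zeb2 mutant cDC1, against 646 and 648 CPM in Irf8 mutant cDC2 (-0.07, 95% interval -0.32 to 0.18, edgeR adjusted p = 0.703).

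**Figure D2:**
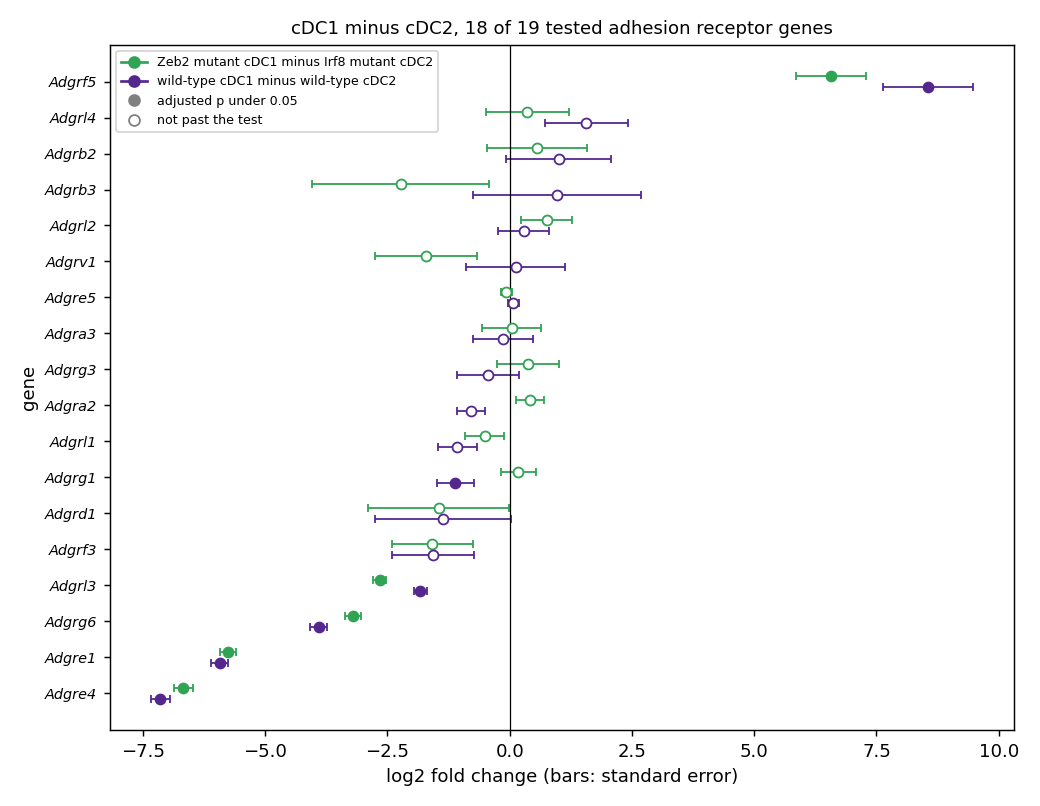
Log2 fold changes of cDC1 over cDC2 for 18 of the 19 tested members, with standard errors as bars, in the mutant groups (green) and in wild type (purple), where filled points have an adjusted p under 0.05. Adgrf5 lies at 6.57 and 8.56, while Adgrl3, Adgrg6, Adgre1 and Adgre4 are filled and below 0 in both comparisons.

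The third comparison asks what the Zeb2 -165(d1+2+3) allele does in cDC1. No member passed edgeR's test, against 0.0679% of all tested genes (14 of 20631, with 0.0145% higher and 0.0533% lower). At an unadjusted p under 0.05 there were 3 members, against 10.5% of all tested genes, and DESeq2 called 3 members, against 1.78% of the genes it gave an adjusted p. Those 3 were the same in both tools: Adgrg6, Adgrl3 and Adgrg1. For 9 of the 19 tested members the 2 mutant libraries did not overlap the 2 wild-type libraries, against 39.0% of all tested genes, and the median log2 fold change was 0.28 over the members and -0.03 over all tested genes.

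Adgrg6 had 5.54 and 4.74 CPM in Zeb2 mutant cDC1, against 2.56 and 2.51 CPM in wild-type cDC1. Both mutant libraries were higher by a mean of 2.03-fold (log2 fold change 1.02 ± 0.16 SE, edgeR adjusted p = 0.0662, DESeq2 adjusted p = 0.000246). Adgrl3 had 12.8 and 15.1 CPM in Zeb2 mutant cDC1, against 22.1 and 23.3 CPM in wild-type cDC1. Both mutant libraries were lower (log2 fold change -0.70 ± 0.13 SE, edgeR adjusted p = 0.104, DESeq2 adjusted p = 0.00458). Adgrg1 had 1.86 and 1.99 CPM in Zeb2 mutant cDC1, against 0.657 and 0.547 CPM in wild-type cDC1. Both mutant libraries were higher, 216 counts against 70 over the 2 libraries of each (log2 fold change 1.67 ± 0.37 SE, edgeR adjusted p = 0.192, DESeq2 adjusted p = 0.0348).

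These 3 differences kept their sign with each library left out, at 0.91 to 1.13 for Adgrg6, -0.82 to -0.58 for Adgrl3 and 1.58 to 1.82 for Adgrg1. Without wild-type cDC1 replicate 3 the log2 fold changes were 1.04 for Adgrg6 and -0.63 for Adgrl3. Adgra2 stood at 0.55 with all libraries and ranged over 0.13 to 1.20 with each library left out. Its highest value came without wild-type cDC1 replicate 3. Across 8399 genes the log2 fold change of this comparison followed gene length (Spearman's rho 0.48), and Adgrg6 and Adgrl3 have exon lengths of 12228 and 17750 bases. With the length trend removed Adgrg6 stood at 0.80 (adjusted p = 0.139) and Adgrl3 at -0.96 (adjusted p = 0.0725).

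**Figure D3:**
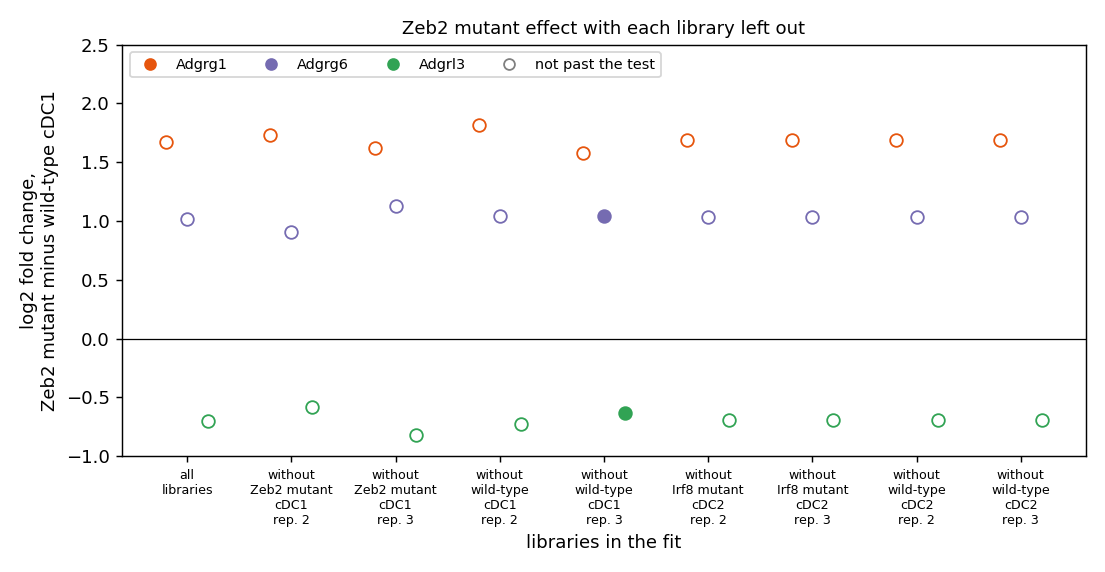
Log2 fold change of Zeb2 mutant over wild-type cDC1 for Adgrg1, Adgrg6 and Adgrl3 with all 8 libraries and with each library left out, where filled points have an edgeR adjusted p under 0.05. Each gene keeps its sign in all 9 fits, and the filled points of these 3 genes are Adgrg6 (1.04) and Adgrl3 (-0.63) without wild-type cDC1 replicate 3.

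Adgrf5 had 12.3 and 21.6 CPM in Zeb2 mutant cDC1, against 5.03 and 10.3 CPM in wild-type cDC1. The groups did not overlap, but the libraries within each group also lay far apart, and the difference did not pass the test (log2 fold change 1.15, 95% interval -0.01 to 2.31, edgeR adjusted p = 0.476). With each library left out it ranged over 0.69 to 1.79, the highest without wild-type cDC1 replicate 3. Adgre5 had 616 and 617 CPM in Zeb2 mutant cDC1, against 705 and 660 CPM in wild-type cDC1 (-0.15, 95% interval -0.40 to 0.10, edgeR adjusted p = 0.696). Adgre1 at 3.94 and 4.67 CPM in Zeb2 mutant cDC1, against 3.84 and 3.25 CPM in wild-type cDC1, and Adgre4 at 1.27 and 1.64 CPM, against 1.02 and 1.25 CPM, stayed at the low level of cDC1 in both genotypes (edgeR adjusted p = 0.567 and 0.541). Adgra2 had 29.1 and 32.8 CPM in Zeb2 mutant cDC1, against 13.8 and 28.4 CPM in wild-type cDC1 (0.55 ± 0.28 SE, edgeR adjusted p = 0.527).

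Adgrg3 (GPR97), known from neutrophils, had 1.2 and 0.664 CPM in Zeb2 mutant cDC1, against 0.225 and 0.804 CPM in wild-type cDC1, and the groups overlapped (edgeR adjusted p = 0.681). The 10 neutrophil markers summed to 66.6 and 92.6 CPM in Zeb2 mutant cDC1 and to 11.6 and 1.11 CPM in wild-type cDC1. The part of that difference in any member's value was not tested.

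The fourth comparison asks what the Irf8 +32-/- allele does in cDC2. No member passed edgeR's test, as was so for all tested genes (0% called), 3 members had an unadjusted p under 0.05, against 6.36% of all tested genes, and DESeq2 called no member, against 0.982% of the genes it gave an adjusted p. For 8 of the 19 tested members the groups did not overlap, against 39.3% of all tested genes. Adgra2 had 26.2 and 19.9 CPM in Irf8 mutant cDC2, against 36.6 and 36.3 CPM in wild-type cDC2 (-0.66 ± 0.28 SE, edgeR adjusted p = 0.766). It was lower in each mutant library, and 1313 tested genes in all had an unadjusted p under 0.05, as it did. Adgrf5 had 16 and 2 counts in Irf8 mutant cDC2, against 0 and 2 counts in wild-type cDC2 (edgeR adjusted p = 0.739), and 1 library holds most of them.

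Adgrg6 had 49.7 and 44.6 CPM in Irf8 mutant cDC2, against 37.9 and 37.9 CPM in wild-type cDC2 (0.31 ± 0.15 SE, edgeR adjusted p = 0.803). Adgrl3 had 87.0 and 89.1 CPM in Irf8 mutant cDC2, against 79.2 and 81.8 CPM in wild-type cDC2 (0.13, 95% interval -0.16 to 0.42, edgeR adjusted p = 0.952). Adgre1 (243 and 222 CPM in Irf8 mutant cDC2, against 227 and 204 CPM in wild-type cDC2) and Adgre4 (150 and 147 CPM, against 164 and 156 CPM) had intervals of -0.20 to 0.42 and -0.42 to 0.20 on the log2 scale. Adgre5 had 646 and 648 CPM in Irf8 mutant cDC2, against 641 and 660 CPM in wild-type cDC2 (-0.01, 95% interval -0.26 to 0.24, edgeR adjusted p = 1).

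**Figure D4:**
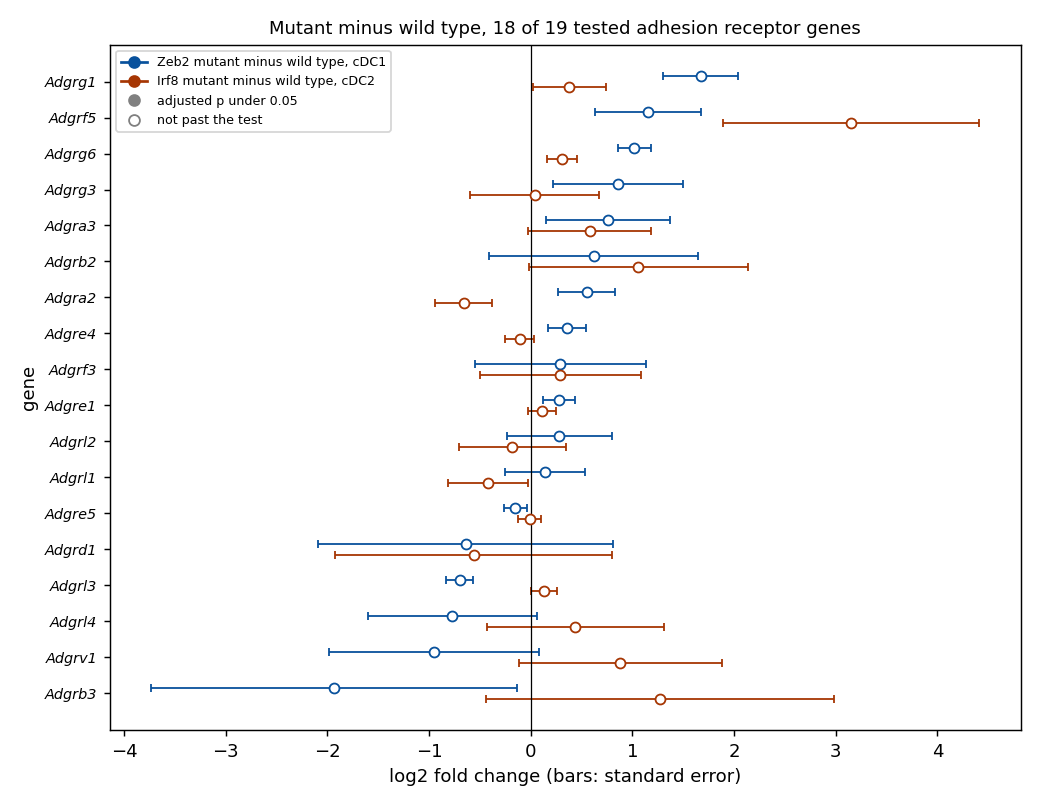
Log2 fold changes of mutant over wild type for 18 of the 19 tested members, with standard errors as bars, for the Zeb2 mutant in cDC1 (blue) and the Irf8 mutant in cDC2 (brown). All points shown are open because no member passed the test, and the bars are shortest for abundant members such as Adgre5 (-0.15 and -0.01).

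Whether the 2 alleles' effects differ was tested as the Zeb2 mutant effect in cDC1 minus the Irf8 mutant effect in cDC2, so cell type differs as well. No member passed edgeR's test, against 0.0194% of all tested genes, and 4 had an unadjusted p under 0.05 (Adgra2, Adgrg1, Adgrg6 and Adgrl3), against 7.62% of all tested genes. For Adgrl3 the difference of the effects was -0.83 ± 0.19 SE (edgeR adjusted p = 0.305), the single member that DESeq2 called (adjusted p = 0.0452), against 1.01% of the genes it gave an adjusted p. For Adgra2 it was 1.21 ± 0.40 SE (edgeR adjusted p = 0.491). With each library left out the Adgra2 value ranged over 0.80 to 1.89, the highest without wild-type cDC1 replicate 3.

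Ligands and partners of adhesion receptors were followed as a list of 35 genes, of which 25 were tested. In wild-type cDC1 against wild-type cDC2, 3 were higher and 4 lower, against 14.2% higher and 15.9% lower over all tested genes. The median log2 fold change was -0.12 beside 0.03 for all tested genes. Tgm2, a transglutaminase that binds Adgrg1, averaged 3.18 ± 0.464 CPM in wild-type cDC1, against 610 ± 55.3 CPM in wild-type cDC2 (SD, n = 2 each, log2 fold change -7.58, edgeR adjusted p = 6.9e-09). Flrt3, a latrophilin ligand, averaged 0.721 ± 0.214 CPM in wild-type cDC1, against 13.0 ± 0.19 CPM in wild-type cDC2 (-4.16, edgeR adjusted p = 6.11e-05). Prnp, the prion protein and an agonist of Adgrg6, was lower in wild-type cDC1 (-1.73, edgeR adjusted p = 0.00141), and the tetraspanin Cd81, a partner of Adgrg1, was higher (2.65, edgeR adjusted p = 6.03e-06). In Zeb2 mutant cDC1 against Irf8 mutant cDC2, 3 were higher and 5 lower, against 12.8% higher and 15.0% lower over all tested genes. The same 4 named genes had the same signs (-8.31 for Tgm2, -5.59 for Flrt3, -2.61 for Prnp and 1.94 for Cd81). Cd55, the ligand of Adgre5, picked for that role after its values were seen, averaged 3.01 ± 0.506 CPM in Zeb2 mutant cDC1, 1.5 ± 0.123 CPM in wild-type cDC1, 1.15 ± 0.15 CPM in Irf8 mutant cDC2 and 1.35 ± 0.575 CPM in wild-type cDC2. It was called higher in Zeb2 mutant cDC1 than in Irf8 mutant cDC2 (1.39 ± 0.40 SE, edgeR adjusted p = 0.0242) and in no other comparison.

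Of 34 genes for G proteins and effectors, 33 were tested. In wild-type cDC1 against wild-type cDC2, 5 were higher and 11 lower, against 14.2% higher and 15.9% lower over all tested genes. The median log2 fold change was -0.10 beside 0.03 for all tested genes. Gna15, a G protein subunit of blood cells, averaged 53.6 ± 0.578 CPM in wild-type cDC1, against 4.18 ± 0.285 CPM in wild-type cDC2 (3.68, edgeR adjusted p = 2.48e-06). Dock1 and Elmo1, which together activate Rac downstream of Adgrb1 in mouse phagocytes, were lower in wild-type cDC1 (-1.84 and -1.29, edgeR adjusted p = 0.000103 and 3.87e-05), as was Rac2 (-1.01, edgeR adjusted p = 0.000275). In Zeb2 mutant cDC1 against Irf8 mutant cDC2, 7 were higher and 7 lower, against 12.8% higher and 15.0% lower over all tested genes. Gna15 (3.33, edgeR adjusted p = 4.44e-06) and Arrb1 (1.41, edgeR adjusted p = 0.00244) were higher there. Dock1 (-2.17, edgeR adjusted p = 3.77e-05) and Rac2 (-1.18, edgeR adjusted p = 9.59e-05) were lower. Gna13, which relays CD97 signals, was present in all groups and not called between the cell types in wild type (344 ± 2.57 CPM in wild-type cDC1, against 364 ± 15.6 CPM in wild-type cDC2, edgeR adjusted p = 0.688). It too was named for its role after its values were seen.

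The Celsr genes encode adhesion receptors that keep other symbols, and all 3 were tested. In wild-type cDC1 against wild-type cDC2, 0 were higher and 2 lower, against 14.2% higher and 15.9% lower over all tested genes. Celsr1 averaged 1.40 CPM in wild-type cDC1, against 5.34 CPM in wild-type cDC2 (-1.93, edgeR adjusted p = 0.0011), and Celsr2 0.292 CPM in wild-type cDC1, against 1.37 CPM in wild-type cDC2 (-2.22, edgeR adjusted p = 0.0123). In the mutant groups 1 was lower, Celsr2 (-2.55, edgeR adjusted p = 0.00633), against 15.0% lower over all tested genes. No gene of the 3 lists was called by edgeR in Zeb2 mutant cDC1 against wild-type cDC1 or in Irf8 mutant cDC2 against wild-type cDC2.

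Several members lie next to each other. Adgrg1 and Adgrg3 follow each other on chromosome 8 with a gap of 3474 bases and no protein-coding gene between them. In wild-type cDC1 against wild-type cDC2 the log2 fold changes were -1.11 ± 0.37 SE for Adgrg1 and -0.44 ± 0.64 SE for Adgrg3, and in Zeb2 mutant against wild-type cDC1 they were 1.67 ± 0.37 SE for Adgrg1 and 0.86 ± 0.64 SE for Adgrg3; the difference between the genes was not tested. Adgrf1 lies 35713 bases before Adgrf5 on chromosome 17, and held no count in the 4 cDC1 libraries in which Adgrf5 held 291 to 1174 counts. A count of 0 in a library allows up to 3 counts. Adgrf4 and Adgrf2, 3845 bases apart on the same chromosome, were not tested.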

How the data were processed

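RNA-seq libraries of cDC1 and cDC2 sorted from spleen, 100000 cells and 10 ng RNA each, were made with a kit that does not mark strand and read as pairs of 150 bases, per the labels' protocols. STAR, Subread featureCounts, Salmon and GRCm38 are named in the submitters' processing notes, without their order or the strand setting. Each deposited count column holds whole reads per gene. The deposited CPM is the count scaled to a column total of 1000000, and the deposited FPKM is that CPM per kilobase of exon, both checked on the values; the deposited TPM was not used. Symbols came from GENCODE M21 for 55227 IDs. Rows were kept by filterByExpr (20631 genes), scaled with TMM and fitted in edgeR 4.0.16 (R 4.3.3) with 1 coefficient per group over 8 libraries (4 residual degrees of freedom, robust quasi-likelihood, common coefficient of variation 0.286), and p-values were adjusted by Benjamini-Hochberg over all tested genes. The threshold was 0.05. Each standard error is the fold change on the log2 scale divided by the root of its F statistic. CPM values in the text are TMM-normalised unless called deposited. Folds are ratios of mean CPM; none is given against a group with 1 to 3 counts, and intervals of counts (95%) cover counting error only. The fit was also run on simulated counts with known changes, whose outcome is not given here. Alternatives were DESeq2 1.42.0, RLE factors, library totals, other filters, only the groups compared, a replicate block, removal of the trend with exon length, and leaving out each library.

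The members and lists were chosen with earlier results of these data known. Every member was accounted for, those past the filter by name with values, except 1 member that is not reported here and stays in the counts; of each list up to 4 called genes per comparison with the largest change were named, if the higher group reached 5 CPM, plus the exceptions stated and Celsr2, named below that level because its list has 3 genes. Promoter windows are from RefSeq (GRCm38.p6).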

Additional observations from a re-analysis of the deposited data

How the results depend on the processing

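In the 2 cell type comparisons, the calls of Adgre4, Adgre1, Adgrg6, Adgrl3 and Adgrf5 held in all 18 alternatives, with log2 fold changes for wild-type cDC1 over cDC2 of -7.29 to -7.01, -6.06 to -5.81, -3.92 to -3.87, -1.86 to -1.78 and 7.69 to 11.74 when 1 library was left out. The members called lower in wild-type cDC1 ranged over 5 to 7. Adgrg1 missed the threshold in 16 of the 18; the cause was not tested. In the mutant cell type comparison 1 to 2 members were higher when 1 library was left out, with Adgra2 (0.49, adjusted p = 0.0365) as the second in the fit that lacked wild-type cDC1 replicate 3. In Zeb2 mutant against wild-type cDC1, 2 members were higher and 1 lower with no filter on low counts (Adgrf5, Adgrg6 and Adgrl3) and with DESeq2 (Adgrg1, Adgrg6 and Adgrl3), and 0 to 2 were higher and 0 to 1 lower when 1 library was left out. With no filter, 1 member was higher in Irf8 mutant cDC2 (Adgrf5) and 1 in the difference of the effects (Adgra2); DESeq2 called 1 lower there, and leaving out 1 library gave 0 to 1 higher. Adgre5, never called, changed sign in the Irf8 comparison with library totals (0.01) and with the length trend removed (0.03, and 0.03 with the replicate block), and in the mutant cell type comparison with library totals (0.03). Library totals moved the median over all genes of the wild-type comparison to 0.11.

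Counts over all genes moved more. In Zeb2 mutant against wild-type cDC1 (3 higher and 11 lower), no filter gave 258 and 219, DESeq2 152 and 135, only the groups compared 0 and 2, RLE factors 1 higher, the length trend removed 1 higher, the same with the replicate block 0 and 5, the crossed block 6 higher, and leaving out 1 library 1 to 755 and 2 to 323. In Irf8 mutant against wild-type cDC2 (0 and 0), no filter gave 125 and 74, DESeq2 75 and 75, RLE factors 4 and 3, a minimum of 1 CPM 4 and 3, only the groups compared 3 and 3, the length trend removed 2 higher, and leaving out 1 library 0 to 18 and 0 to 10. For the difference of the effects (0 and 4), no filter gave 139 and 167, DESeq2 71 and 84, the replicate block 1 lower, also with the length trend removed, the crossed block 1 higher, and leaving out 1 library 0 to 541 and 0 to 164. The cell type counts in wild type (2932 and 3287) ranged over 1721 to 3171 and 2091 to 3634 when 1 library was left out, and those in the mutants (2646 and 3104) over 1681 to 3466 and 2051 to 3648. The highest counts of the Zeb2 comparison came without wild-type cDC1 replicate 3.

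Same-numbered libraries did not deviate together (correlations -0.18 to 0.07 over 8399 genes), so the replicate block was read only as a setting: it left the members called at 1 higher and 5 lower in wild type and 0 in each mutant against its wild type. With wild-type cDC1 crossed, added after seeing the data, 1 was higher and 7 lower in wild type. Members under 1 CPM had standard errors that mostly exceed 0.5, which limits the differences that could be detected. How far depth or the spread between libraries sets these errors was not tested.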
